A study of Arabidopsis thaliana with 18 samples.

Results

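The systemic response of the bak1-5 mutant of Arabidopsis thaliana was described from 6 of the 18 arrays of the series. The 6 arrays were those titled as bak1-5, 3 after infiltration of lower leaves with Pseudomonas syringae pv. maculicola (Psm) and 3 after infiltration with MgCl2. In every plant 3 lower leaves were infiltrated, with Psm at an OD600 of 0.002 in 10 mM MgCl2 or with 10 mM MgCl2 alone. RNA was taken 48 hr later from uninfected upper leaves. The groups were bak1-5 Psm, bak1-5 MgCl2, lecrk-VI.2-2 Psm, lecrk-VI.2-2 MgCl2, wild-type Col-0 Psm and wild-type Col-0 MgCl2, with 3 arrays each, and all genotypes were in the Col-0 ecotype. The mutant groups rest on 1 allele each, and each RNA sample pooled leaves of 12 plants. The labels call the 3 arrays of a group biological replicates but do not say whether they came from separate days, so q-values measure only the spread between these samples.

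BAK1 is a receptor kinase that joins many pattern-recognition receptors at the plasma membrane and is needed for their signalling. The bak1-5 allele changes the kinase domain and impairs immune signalling while leaving brassinosteroid signalling largely intact. In systemic acquired resistance, infection of lower leaves raises salicylic acid (SA) and defense transcripts in leaves that were never infected. Jasmonic acid (JA) acts as a further, partly antagonistic, defense hormone in the same leaves.

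Values are log2 signals from the ATH1 array after robust multi-array averaging (RMA), and a change is the mean of the 3 Psm arrays minus the mean of the 3 MgCl2 arrays. Of 22746 probe sets tested, 14510 could be assigned to 1 gene. bak1-5 Psm replicate 3 stood apart, with a median log2 signal of 4.45, against 4.54 to 4.57 in the other bak1-5 Psm arrays and 4.57 to 4.58 in the bak1-5 MgCl2 arrays. The median SD among replicates was 0.123 in bak1-5 Psm and 0.0929 in bak1-5 MgCl2. The mutated gene could not check the labels, because a changed kinase domain need not alter a transcript level: BAK1 read 5.62, 5.37 and 5.45 in bak1-5 Psm, against 5.55, 5.85 and 5.59 in bak1-5 MgCl2 (change -0.18, q = 0.52). Few cell type markers were named, namely RCA of leaf mesophyll (-0.04), FAMA of guard cells (-0.04) and, from outside the leaf, EXPA7 of root hairs (-0.16). None passed the test. No marker of the epidermis, the vasculature or dividing cells was named. As whole leaves were sampled, fewer cells of a type and less RNA per cell cannot be told apart.

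Psm infection of lower leaves raised 221 probe sets in systemic bak1-5 leaves (0.972% of those tested) and lowered 121 (0.532%), with q at or below 0.05 and at least a 2-fold change. The largest named rises were those of SA-linked and JA-linked defense genes. The largest named falls were those of PHI-1, EXLA1 and EXO, genes of the cell wall or of cell expansion. Other named falls of at least 4-fold included genes of other kinds or of no given function. Of the lowered probe sets, 65 had no single gene. Rises were also larger than falls. Among raised probe sets, 67 reached 4-fold, 23 reached 8-fold and 6 reached 16-fold, whereas among lowered probe sets 24 reached 4-fold, 4 reached 8-fold and 0 reached 16-fold. On the log2 scale the raised probe sets reached 4.86, at a probe set with no single gene, and the lowered ones -3.44. The Psm and MgCl2 arrays of bak1-5 did not overlap at any of these 342 probe sets. Over all probe sets tested, all 3 Psm arrays lay above all 3 MgCl2 arrays at 10.7% and below them at 15.7%. The median change over all probe sets was -0.04. Gene names were found for 206 of the raised and 56 of the lowered probe sets. The names of 127 raised and 7 lowered probe sets came from rows of a supplementary table. The rows available all had a wild-type change of at least 0.33, so the named genes lean to those that Psm raised in Col-0.

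The largest named rise was that of AT5G03350, which encodes a lectin-like protein. Its log2 signal was 10.88, 10.96 and 10.77 in bak1-5 Psm, against 6.12, 6.20 and 6.09 in bak1-5 MgCl2. The 3 arrays of each treatment lay within 0.2 of each other and more than 4 log2 units from the other treatment (change 4.73, SE 0.30, q = 7.4e-09). In Col-0 the same gene changed by 3.35, and in bak1-5 MgCl2 it lay 1.75 below Col-0 MgCl2 (difference -1.75, q = 0.032). No other probe set of the array had a lower MgCl2 level in bak1-5 than in Col-0 with q at or below 0.05 (0.0044% of those tested).

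Other SA-linked genes were almost as uniform between arrays. LURP1, a gene induced late in resistance to an oomycete, read 9.58, 9.56 and 9.26 in bak1-5 Psm, against 5.12, 5.36 and 5.32 in bak1-5 MgCl2 (change 4.20, SE 0.30, q = 4.6e-08). WAK1, a wall-associated kinase that binds pectin, read 8.61, 8.54 and 8.46 in bak1-5 Psm, against 4.62, 4.30 and 4.47 in bak1-5 MgCl2 (change 4.07, SE 0.28, q = 3.5e-08). PCC1, a small pathogen-responsive membrane protein gene, read 12.09, 12.11 and 11.94 in bak1-5 Psm, against 8.03, 8.15 and 8.60 in bak1-5 MgCl2 (change 3.79, q = 1.6e-07). In none of these genes did an array of one treatment come near the other treatment, and the Psm arrays differed by less than 0.4. ANK, an ankyrin-repeat protein gene, rose by 3.68 (q = 1.4e-09), ACD6, an ankyrin-repeat membrane protein that promotes SA-dependent defense, by 3.21 (q = 3.6e-08), and WRKY70, an SA-induced transcription factor, by 3.20 (q = 3e-08). The plot of the 12 largest rises shows how closely the replicates of these genes lay.

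**Figure D1:**
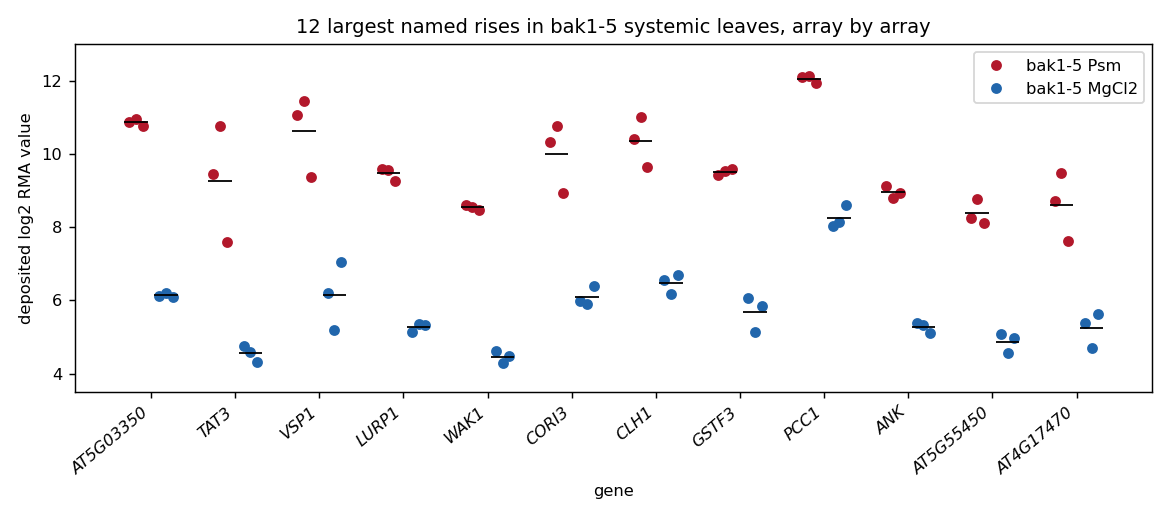
Log2 RMA signal (vertical axis) of the 12 genes with the largest named rises in bak1-5, with 1 point per array, bak1-5 Psm at left (red) and bak1-5 MgCl2 at right (blue), and a black line at each mean of 3. No gene has overlapping treatments, and in TAT3, VSP1, CORI3, CLH1 and AT4G17470 the Psm points spread far more than in AT5G03350, LURP1 or WAK1.

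Of 25 listed SA-responsive defense genes, 23 were named and 16 of these rose in bak1-5, 0 fell, with q at or below 0.05. This q was reached by 4.08% of all probe sets above 0 and 3.01% below 0. The median change of the 23 was 1.65, beside -0.04 over all probe sets. Of the 23, 19 were named only through those table rows, all with a change of at least 0.33 in Col-0. The fairer background is thus the 1014 probe sets named in that way, of which 35.8% rose in bak1-5 with a median change of 0.39. By this measure 14 of the 19 rose with a median of 2.37, and of the 4 named through the platform annotation 2 rose. DMR6, which hydroxylates SA, read 9.18, 9.13 and 9.19 in bak1-5 Psm, against 6.09, 6.36 and 6.09 in bak1-5 MgCl2 (change 2.99, SE 0.11, q = 1.5e-11). PR2, a glucanase gene listed as BGL2, read 6.51, 8.37 and 6.18 in bak1-5 Psm, against 4.00, 4.00 and 4.17 in bak1-5 MgCl2 (change 2.97, SE 0.43, q = 0.00017). DMR6 thus varied by less than 0.1 among Psm arrays, while PR2 varied by more than 2 without overlapping the MgCl2 arrays. The members that did not pass included WRKY18 (-0.60, q = 0.18), WRKY53 (0.09), AIG1 (0.17), SAG13 (0.11) and UGT76B1 (0.22).

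The genes that make SA or carry its signal changed little by comparison. Of 12 named members among 16 listed, 3 rose and 0 fell, with a median change of 0.26. Of the 10 named only in this way, 3 rose, no larger a share than that background. EDS1, a lipase-like regulator, read 6.19, 6.29 and 6.44 in bak1-5 Psm, against 5.40, 5.33 and 5.44 in bak1-5 MgCl2 (change 0.92, q = 8.7e-06). The SA receptor genes NPR1 (0.55, q = 0.0068) and NPR4 (0.59, q = 0.0024) rose by less than 2-fold. ICS1, which encodes the main SA synthesis enzyme and is named EDS16 in the annotation, changed by 0.10 and did not pass. BSMT1, which methylates SA and other benzoates, read 8.02, 8.39 and 4.04 in bak1-5 Psm, against 4.05, 4.05 and 4.10 in bak1-5 MgCl2 (change 2.75, SE 0.93, q = 0.088). Psm replicates 1 and 2 were far above the MgCl2 arrays for BSMT1, and replicate 3 was not. All 3 named members of the 11 listed pipecolic acid and mobile signal genes rose, namely AT5G03350, G3PP1 (2.05, q = 5.1e-07) and AT5G52810 (0.82). Of these 3, 2 were named through the platform annotation, where 3.05% of probe sets rose. G3PP1 encodes a glycerol-3-phosphate permease.

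JA-linked genes made up a second group of large rises, and they differed more between arrays. Of 31 named members among 37 listed JA genes, 11 rose and 1 fell, with a median change of 0.70. The 11 were among 28 members named only through the table, a share near the 35.8% of all probe sets so named, and of the 3 named through the annotation 0 rose. TAT3, a tyrosine aminotransferase gene, read 9.44, 10.77 and 7.59 in bak1-5 Psm, against 4.75, 4.58 and 4.32 in bak1-5 MgCl2 (change 4.71, SE 0.77, q = 0.00063). VSP1, a vegetative storage protein gene whose probe set can also detect related genes, read 11.05, 11.45 and 9.35 in bak1-5 Psm, against 6.19, 5.19 and 7.04 in bak1-5 MgCl2 (change 4.48, SE 0.63, q = 0.00015). Replicate 3 was the lowest Psm array for both genes, yet still above every MgCl2 array. CORI3, a cystine lyase gene induced by the JA mimic coronatine, rose by 3.91 (q = 9e-05), and CLH1, a chlorophyllase gene, by 3.88 (q = 2.5e-05).

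Of 10 named enzymes of JA synthesis in the list, 4 rose, namely LOX2, AOS, AOC1 (3.05) and ACX1 (1.53). The other 6 did not pass, OPR3 with q = 0.095 and the rest with changes of 0.49 for OPCL1, 0.24 for AOC3, 0.21 for LOX3, 0.13 for PKT3 and -0.21 for LOX4. LOX2, a chloroplast lipoxygenase gene, read 11.36, 11.86 and 10.44 in bak1-5 Psm, against 8.59, 8.58 and 8.95 in bak1-5 MgCl2 (change 2.51, q = 0.00032). AOS, the allene oxide synthase gene, read 9.98, 10.56 and 9.08 in bak1-5 Psm, against 7.63, 7.51 and 7.19 in bak1-5 MgCl2 (change 2.43, q = 0.0011). MYC2, the transcription factor that drives JA responses, read 7.02, 7.71 and 6.49 in bak1-5 Psm, against 5.17, 5.31 and 5.00 in bak1-5 MgCl2 (change 1.91, q = 0.00054). In LOX2, AOS and MYC2 replicate 2 was highest and replicate 3 lowest, with no overlap with the MgCl2 arrays. Of the 10 JAZ repressor genes named, JAZ9 (1.95, q = 0.00099) and JAZ12 (0.87, q = 0.019) rose, and the others did not pass, with values from -0.43 for JAZ7 to 1.08 for JAZ10. CYP94C1, which oxidises JA-isoleucine, was the 1 member that fell, with 3.94, 4.00 and 3.63 in bak1-5 Psm, against 4.53, 4.86 and 4.30 in bak1-5 MgCl2 (change -0.70, q = 0.008), dim on every array.

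The position of Psm replicate 3 extended beyond single genes. The mean of the 31 JA genes over the bak1-5 MgCl2 mean was 1.37, 1.79 and 0.62 in Psm replicates 1, 2 and 3, while it lay between -0.10 and 0.06 in the MgCl2 arrays. For the 23 SA-responsive genes the same means were 1.80, 1.88 and 1.60 in the Psm arrays and between -0.04 and 0.04 in the MgCl2 arrays. Replicate 3 was the lowest of the 3 Psm arrays at 155 of the 221 raised probe sets. The share over all probe sets was not taken, so this count has no background. The median distance of the lowered probe sets from the MgCl2 mean was by contrast nearly the same in the 3 Psm arrays, at -1.34, -1.38 and -1.39. Without replicate 3, 280 probe sets were raised and 136 lowered, and 15 JA genes rose. The part of the low median signal of this array in these values was not tested.

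**Figure D2:**
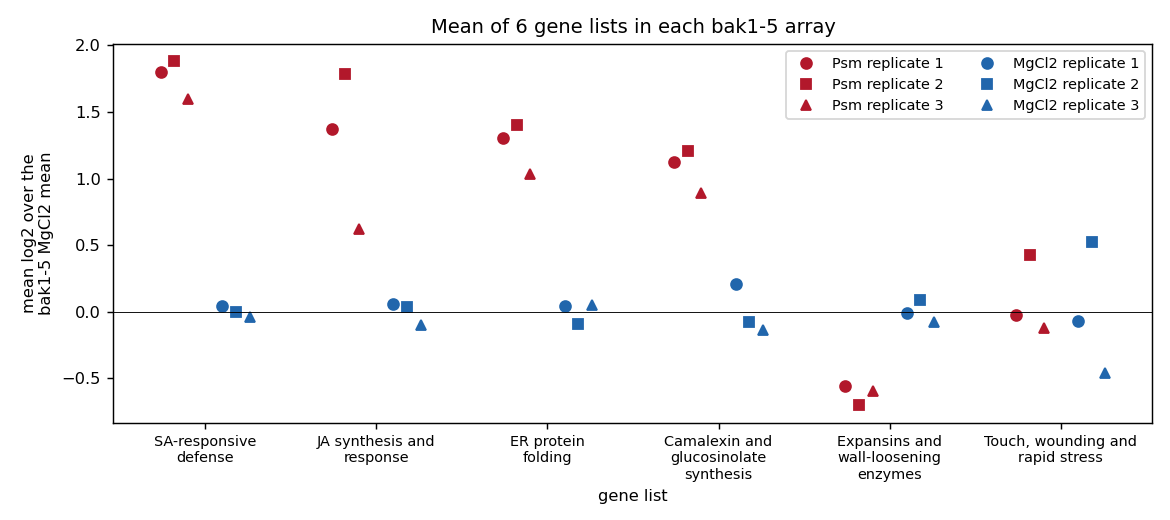
Mean log2 value of 6 gene lists over the bak1-5 MgCl2 mean (vertical axis) in each bak1-5 array, Psm at left (red) and MgCl2 at right (blue), with the symbol giving the replicate. Psm replicate 3 is at 0.62 for JA genes and 1.60 for SA-responsive genes, and the touch list spreads from -0.46 to 0.52 among the MgCl2 arrays alone.

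Genes for folding proteins in the endoplasmic reticulum, which serve the secretion of defense proteins and receptors, mostly rose. Of 14 named members among 17 listed, 12 rose and 0 fell, with a median change of 1.18. Of the 11 named only through that table, 10 rose, beside the background of 35.8%, and of the 3 named through the annotation 2 rose. CRT3, a calreticulin gene of the plant lineage, read 7.39, 7.47 and 7.32 in bak1-5 Psm, against 4.88, 4.70 and 4.51 in bak1-5 MgCl2 (change 2.70, SE 0.15, q = 1.4e-09). The treatments were more than 2 log2 units apart, with Psm arrays within 0.2 of each other. BIP1, a lumenal Hsp70 gene whose probe set can detect a close copy, rose by 2.48 (q = 2.7e-07), SHD, the lumenal Hsp90 gene, by 2.39 (q = 1.3e-05) and the calnexin gene CNX1 by 1.89 (q = 1.2e-05). BZIP60 (-0.12), a transcription factor of the unfolded protein response, and BIP3 (0.15) did not pass.

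Of 8 named members among 18 listed glucosinolate and camalexin genes, 5 rose and 0 fell, with a median change of 1.03. The 5 were among 6 named only through the table, beside the background of 35.8%, and of the 2 named through the annotation 0 rose. None of the 8 acts in camalexin synthesis alone, and CYP79B2 and CYP79B3 serve it and indole glucosinolates alike. CYP79B2, which converts tryptophan to the oxime precursor, read 7.74, 8.46 and 7.74 in bak1-5 Psm, against 6.17, 5.92 and 5.98 in bak1-5 MgCl2 (change 1.96, SE 0.26, q = 7.4e-05). CYP79B3, its paralog, rose by 1.37 (q = 0.0016), and CYP83B1, which acts on the oxime, by 1.55 (q = 0.00041). The sulfotransferase genes SOT16 (1.27, q = 0.0051) and SOT17 (0.64, q = 0.0077) act late in the pathway and also rose, SOT17 mainly on glucosinolates of the aliphatic branch. SUR1 (0.79), UGT74B1 (0.53) and BCAT4 (0.50), an enzyme of the aliphatic branch, did not pass. In the TAIR10.1 gene order CYP79B2 directly follows AKN2, an adenylylsulfate kinase gene that rose by 1.36 (q = 0.0019). AKN2 makes the sulfate donor that sulfotransferases use. BGLU18 (3.19) and TSA1 (2.51) were the other neighbouring pair among 204 raised loci with a name, and both proteins belong to endoplasmic reticulum bodies.

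Among membrane receptors some members rose and others did not pass. Of 11 named receptor-like protein genes among 12 listed, 6 rose and 0 fell, with a median of 0.56. All 11 were named only through the table, beside the background of 35.8% and a median of 0.39 for all probe sets so named. Without dim probe sets 2 rose instead of 6. RLP37, whose probe set can detect related genes, read 7.08, 6.64 and 7.00 in bak1-5 Psm, against 4.09, 4.11 and 3.96 in bak1-5 MgCl2 (change 2.85, SE 0.16, q = 1.6e-09). RLP23, a receptor of a microbial peptide, read 4.70, 4.98 and 4.38 in bak1-5 Psm, against 4.18, 4.03 and 4.08 in bak1-5 MgCl2 (change 0.59, q = 0.0029). The treatments did not overlap for either gene, but the RLP23 arrays were dim. Of 11 named lectin, cysteine-rich and wall-associated receptor kinases among 20 listed, 5 rose and 0 fell, with a median of 0.34. All 11 were again named only through the table, so that the share and the median lay near this background. Without dim probe sets 3 rose instead of 5. WAK1 was described above. CRK4 rose by 2.03 (q = 5e-07), and WAK2 by 0.49 (q = 0.0014), while WAK3 changed by 0.07 (q = 0.77). LecRK-VI.2, listed as LECRKA4.1, changed by -0.02 (q = 0.93).

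Of 12 named pattern-triggered immunity genes among 21 listed, 2 rose and 2 fell, with a median of 0.28. SOBIR1, the adaptor kinase of receptor-like proteins, read 8.38, 8.70 and 8.31 in bak1-5 Psm, against 6.82, 7.53 and 6.15 in bak1-5 MgCl2 (change 1.63, q = 0.0016). BIR1, a receptor kinase that restrains SOBIR1-dependent cell death, rose by 0.45 (q = 0.018). WRKY22, a transcription factor downstream of flagellin perception, fell by 0.41 (q = 0.027). FERONIA (FER), a receptor kinase for RALF peptides, read 5.41, 5.49 and 5.42 in bak1-5 Psm, against 6.30, 6.49 and 6.17 in bak1-5 MgCl2 (change -0.88, q = 0.0011). MPK3 (0.19), RBOHD (0.38) and WRKY33 (0.38) did not pass in bak1-5.

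In the remaining lists no more than 2 named members rose in any one. Over all probe sets 4.08% passed above 0 and 3.01% below 0. Of those named only through the table, 35.8% rose and 1.18% fell. Of 9 named abscisic acid and drought genes among 17 listed, 2 rose and 1 fell, with a median of 0.15. RD20, a caleosin gene, rose by 2.18 (q = 0.00099), HB-12 by 0.57 (q = 0.041), and the dehydrin gene COR47 fell by 1.49 (q = 0.0021). Of 4 named genes of NAD synthesis and turnover among 7 listed, 2 rose. AO, the L-aspartate oxidase gene that opens NAD synthesis, rose by 1.09 (q = 0.0071) and NUDX6, a NADH pyrophosphatase gene, by 1.29 (q = 0.00019). Of the 4, 1 was named through the annotation and the others only through the table. AO read 6.28, 6.07 and 6.82 in bak1-5 Psm, against 5.58, 5.39 and 4.93 in bak1-5 MgCl2, with no overlap. PR4 (1.25, q = 0.0082) rose among 3 named of 11 ethylene genes, and BKI1 (0.58, q = 0.00066), an inhibitor of the brassinosteroid receptor, among 2 named of 16 brassinosteroid genes. No named member passed among 4 of 22 photosynthesis genes, 4 of 14 auxin genes, 4 of 12 senescence and starvation genes, 4 of 11 flavonoid genes, 1 of 16 clock genes and 1 of 6 lipid transfer protein genes.

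**Figure D3:**
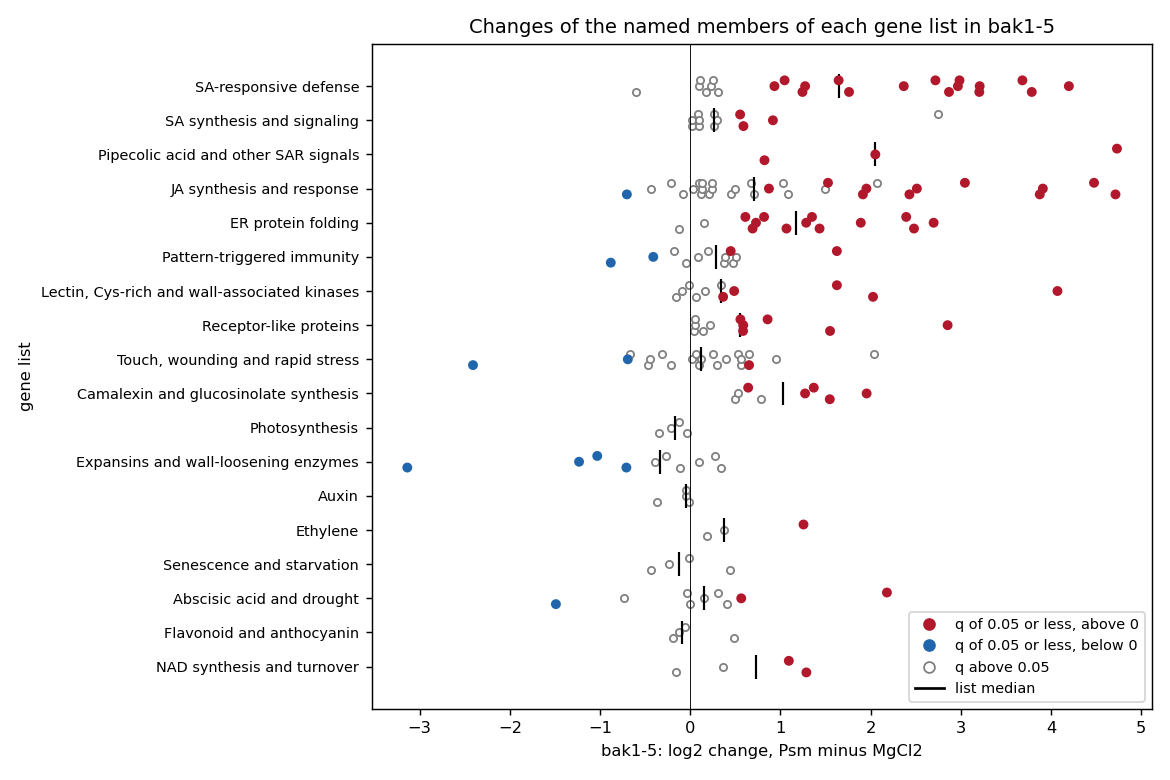
Log2 change in bak1-5, Psm minus MgCl2 (horizontal axis), of each named member of the lists with at least 3 named genes. Filled points had a q-value of 0.05 or less (red above 0, blue below 0), open points did not, and the bar is the list median. Points to the right dominate the SA-responsive and endoplasmic reticulum lists (medians 1.65 and 1.18). Of the 10 filled points to the left, 4 are expansins and wall-loosening enzymes and 6 belong to other lists.

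Among named genes the largest falls were those of PHI-1, EXLA1 and EXO, genes of the cell wall or of cell expansion. Of the 12 largest falls of all, 7 were of probe sets with no single gene, 1 of them past 8-fold, and AT3G19680, which fell by 2.70, is described below with the lecrk-VI.2-2 mutant. PHI-1, a phosphate-induced gene related to EXORDIUM, read 4.34, 5.40 and 4.55 in bak1-5 Psm, against 8.12, 9.44 and 7.04 in bak1-5 MgCl2 (change -3.44, SE 0.46, q = 7.9e-05). EXO, the EXORDIUM gene of cell expansion, read 5.40, 5.94 and 5.71 in bak1-5 Psm, against 8.58, 9.55 and 8.19 in bak1-5 MgCl2 (change -3.09, SE 0.31, q = 2.9e-06). EXLA1, an expansin-like gene, read 4.45, 4.43 and 4.62 in bak1-5 Psm, against 7.60, 8.24 and 7.08 in bak1-5 MgCl2 (change -3.14, SE 0.29, q = 9.5e-07). The treatments were more than 1.5 log2 units apart in each gene, and the MgCl2 arrays varied more than the Psm arrays. TCH4, a touch-induced xyloglucan endotransglucosylase gene, read 6.94, 8.14 and 7.30 in bak1-5 Psm, against 10.07, 10.64 and 8.90 in bak1-5 MgCl2 (change -2.41, SE 0.44, q = 0.0018). DREB26, an ethylene-response-factor type transcription factor, fell by 2.12 (q = 0.00098).

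Of 10 named expansins and wall-loosening enzymes among 20 listed, 4 fell and 0 rose, with a median of -0.33. Beside EXLA1, these were EXLA2 (-1.03, q = 3.4e-05), XTH16 (-0.71, q = 0.0055) and XTH24 (-1.23, q = 0.0077). Of the 10, 8 were named through the annotation, where 2.72% of probe sets passed below 0 and 3.05% above 0. EXLA2 and XTH16 were dim on every array, so that 2 members fell without dim probe sets. Of the other members, EXPA8 (0.27), EXPA10 (0.34) and XTH18 (-0.39) did not pass. Wall-related genes outside the list, chosen after their values were seen, included EXGT-A3, a further xyloglucan endotransglucosylase gene, at 7.60, 7.82 and 7.65 in bak1-5 Psm, against 8.89, 8.81 and 8.81 in bak1-5 MgCl2 (change -1.14, q = 4.2e-05). SKU5, a membrane-anchored protein of directional growth, fell by 1.40 (q = 2.5e-05).

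Of 11 probe sets named as RALFL genes, which encode rapid alkalinization factor peptides, 3 fell and 8 did not pass, with values from -0.17 to 0.23. Over all probe sets 3.01% passed below 0, and the family was not among the lists. RALFL22 read 4.96, 4.75 and 5.06 in bak1-5 Psm, against 7.07, 7.57 and 6.73 in bak1-5 MgCl2 (change -2.20, SE 0.27, q = 3.7e-05). RALFL33, a further peptide of this family chosen after its values were seen, read 6.26, 6.58 and 6.25 in bak1-5 Psm, against 7.49, 7.61 and 7.25 in bak1-5 MgCl2 (change -1.09, q = 0.00084). THE1, a receptor kinase of the FERONIA family likewise chosen after its values were seen, read 4.81, 4.81 and 4.33 in bak1-5 Psm, against 5.68, 5.95 and 6.12 in bak1-5 MgCl2 (change -1.27, q = 0.00021). The treatments did not overlap for RALFL22, RALFL33 or THE1. RALFL24 fell by 0.62 (q = 0.00035). FER itself fell by less than 2-fold.

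The level of several of these genes after MgCl2 was higher in bak1-5 than in the wild type. With q at or below 0.05, 12 probe sets were higher in bak1-5 MgCl2 than in Col-0 MgCl2 (0.0528%), and all 12 were among the 121 lowered in bak1-5, a comparison that shares the bak1-5 MgCl2 arrays. For EXO, the Col-0 arrays read 7.94, 7.93 and 7.69 after Psm, against 5.86, 6.18 and 6.62 after MgCl2, so that all 3 bak1-5 MgCl2 arrays lay above all 6 Col-0 arrays. For PHI-1, the Col-0 arrays read 6.25, 6.37 and 6.53 after Psm, against 4.62, 4.95 and 4.96 after MgCl2, again all below the bak1-5 MgCl2 arrays. The MgCl2 level in bak1-5 minus that in Col-0 was 3.35 for PHI-1 (q = 0.0032), 2.56 for EXO (q = 0.00096), 1.76 for EXLA1 (q = 0.022) and 2.22 for TCH4 (q = 0.093). bak1-5 MgCl2 replicate 2 was the highest array for PHI-1, EXO, EXLA1, TCH4 and DREB26. In the same array the mean of 21 named touch and wounding genes was 0.52 above the bak1-5 MgCl2 mean, against -0.07 in replicate 1 and -0.46 in replicate 3. Of those 21 genes among 25 listed, 1 rose (WRKY46, 0.65, q = 0.0064) and 2 fell in bak1-5 (TCH4 and CYP707A3, -0.69, q = 0.046), with a median of 0.12. Of the 21, 2 were named through the annotation and the others only through the table, where 35.8% of probe sets rose and 1.18% fell. Without MgCl2 replicate 2, PHI-1, EXO, EXLA1, TCH4 and DREB26 still passed the test, and 112 probe sets were lowered. The part of touch-related transcripts in these falls was not tested.

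**Figure D4:**
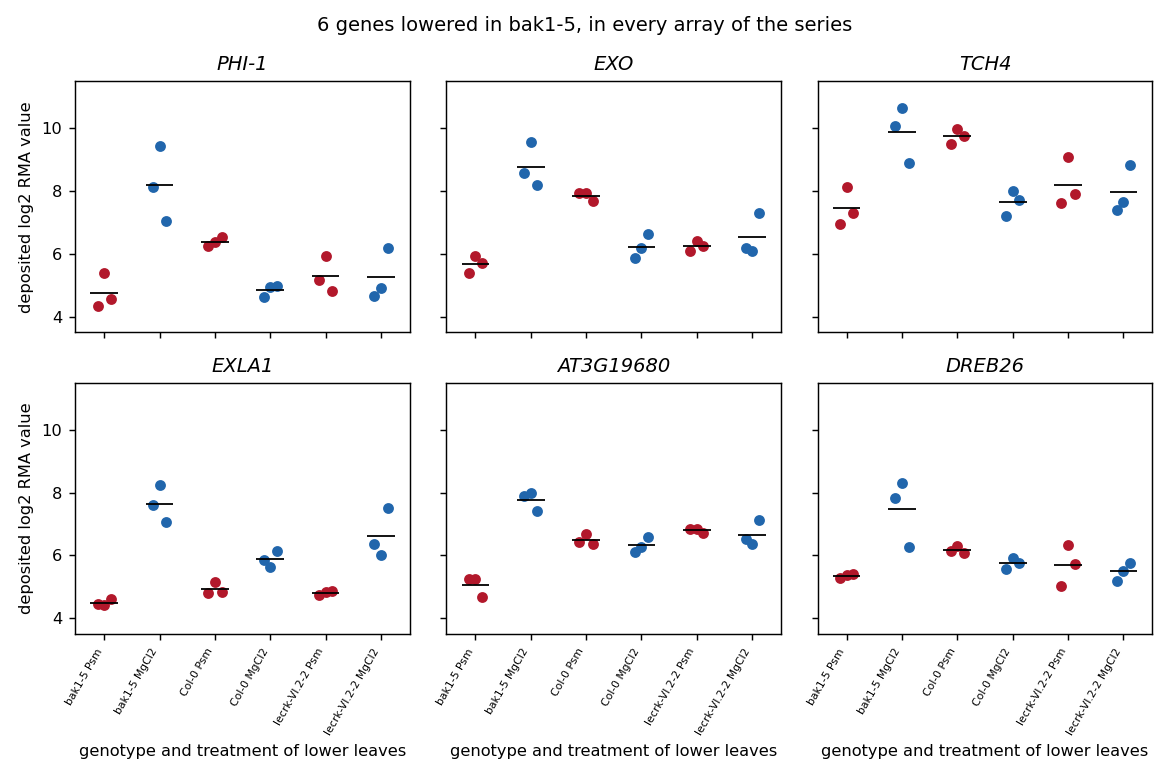
Log2 RMA signal (vertical axis) of 6 genes lowered in bak1-5, in all 18 arrays, with 1 point per array and a line at each mean of 3. For PHI-1 and EXO the bak1-5 MgCl2 arrays lie above every other array of the series, while Col-0 Psm lies above Col-0 MgCl2.

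Other lowered genes had changes below 0 in every genotype. AT1G29670 read 4.71, 4.90 and 5.04 in bak1-5 Psm, against 7.25, 7.33 and 7.24 in bak1-5 MgCl2 (change -2.39, SE 0.28, q = 2.1e-05), and it changed by -1.55 in lecrk-VI.2-2 and -2.34 in Col-0. AT1G04040 read 5.95, 5.44 and 6.01 in bak1-5 Psm, against 8.18, 7.79 and 8.07 in bak1-5 MgCl2 (change -2.22, q = 7.8e-07), beside -1.42 in lecrk-VI.2-2 and -1.79 in Col-0. Neither gene overlapped between treatments in bak1-5. AT1G29660, which directly precedes AT1G29670 in the TAIR10.1 gene order, fell by 1.56 (q = 0.042). They were the 1 neighbouring pair among 55 lowered loci. AT1G62510 (-2.33, q = 0.0024), AT2G10940 (-2.18, q = 0.0018), AT5G44020 (-1.96, q = 3.5e-05), AT5G44680 (-1.96, q = 0.00016) and AT3G61260 (-1.55, q = 1.2e-05) also fell, and the files and the reference give no function for these loci.

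The bak1-5 response was set against that of the wild type to ask where the mutant differed. Of the 221 raised probe sets, 189 were also raised in Col-0, which is 85.5% of the bak1-5 list and 33.5% of the 564 raised in Col-0 (2.48% of all probe sets). Of the 121 lowered probe sets, 43 were also lowered in Col-0, which is 35.5% of the bak1-5 list and 28.5% of the 151 lowered in Col-0 (0.664%). No raised probe set passed the test below 0 in Col-0, and the share of all probe sets that did so was not taken. With the 2-fold threshold the count was also 0, beside 0.664% of all probe sets. Of the lowered probe sets, 8 passed above 0 in Col-0, no larger a share than the 7.36% of all probe sets that did. By at least 2-fold it was 5 of them (2.48% of all probe sets), namely PHI-1, EXO, TCH4, BT2 and AT2G27080. BT2, a BTB domain regulator chosen after its values were seen, read 5.96, 6.01 and 5.77 in bak1-5 Psm, against 7.70, 6.60 and 6.92 in bak1-5 MgCl2, while Col-0 read 8.04, 8.43 and 8.25 after Psm, against 7.36, 7.39 and 6.62 after MgCl2.

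The test of the difference between the changes found 176 probe sets with a lower change in bak1-5 than in Col-0 (0.774%) and 30 with a higher change (0.132%). The 176 had a median change of -0.15 in bak1-5, against 1.51 in Col-0, and 124 of them were raised in Col-0. Of these 124, 95 did not pass the test in bak1-5 and 11 were raised in both genotypes. WRKY40, a transcription factor of early defense, read 5.13, 5.83 and 4.66 in bak1-5 Psm, against 4.62, 5.83 and 4.27 in bak1-5 MgCl2, and 7.92, 7.53 and 8.15 in Col-0 Psm, against 4.29, 4.68 and 4.45 in Col-0 MgCl2. The bak1-5 treatments overlapped for WRKY40 (0.30, q = 0.69) and the Col-0 treatments were about 3 log2 units apart (difference -3.09, q = 0.0029). For AT3G01830 the change was 0.29 in bak1-5 and 3.47 in Col-0 (difference -3.18, q = 6.9e-06). Among all 176, the Psm level was lower in bak1-5 than in Col-0 with q at or below 0.05 in 152 (2.28% of all probe sets), and the MgCl2 level was higher in 9. Both levels enter the difference itself.

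Among genes with a higher change in bak1-5, AT1G19960 read 9.29, 9.01 and 9.56 in bak1-5 Psm, against 5.80, 5.88 and 6.10 in bak1-5 MgCl2, and 7.82, 8.60 and 8.53 in Col-0 Psm, against 6.42, 6.50 and 7.03 in Col-0 MgCl2. It rose in both genotypes and by 1.70 more in bak1-5 (q = 0.04), a difference that failed many of the alternatives given below. The count of 30 probe sets with a higher change ranged from 11 to 46 when 1 array was left out. AT2G15020 read 5.91, 5.15 and 5.86 in bak1-5 Psm, against 4.04, 4.20 and 4.13 in bak1-5 MgCl2 (change 1.52, q = 1.1e-05), while in Col-0 the values were 4.06, 4.18 and 4.30 after Psm, against 4.32, 4.32 and 3.94 after MgCl2. The treatments overlapped in Col-0 and not in bak1-5 (difference 1.53, q = 0.0021). The remaining 8 named genes of this kind had differences from 1.04 for AT1G64500 to 1.78 for AT4G24780. Some of them moved down less in bak1-5 rather than up: HCT, a lignin pathway acyltransferase gene, changed by -0.17 in bak1-5 and -1.33 in Col-0 (difference 1.16, q = 0.021).

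**Figure D5:**
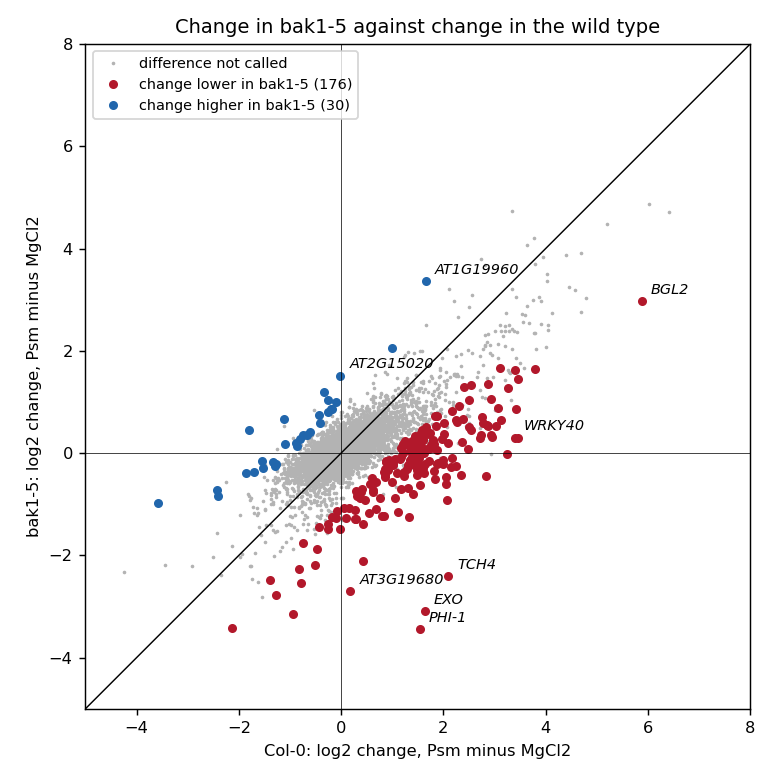
Log2 change in bak1-5 (vertical axis) against that in Col-0 (horizontal axis), both Psm minus MgCl2, for all 22746 probe sets, with the line of equal change. Red points (176) had a lower and blue points (30) a higher change in bak1-5 by the test of the difference, and PHI-1, EXO and TCH4 lie below 0 in bak1-5 and above 0 in Col-0.

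The lecrk-VI.2-2 mutant gave 55 raised probe sets (0.242%), and all 55 were also raised in bak1-5, which is 24.9% of the bak1-5 list. It gave 26 lowered probe sets (0.114%), 25 of which were lowered in bak1-5, or 20.7% of the bak1-5 list. In the test of the difference, 3 probe sets had a higher change in bak1-5 than in lecrk-VI.2-2 (0.0132%) and 4 a lower one (0.0176%), and 5 of these 7 were named. These counts moved with the processing, to 36 and 37 with array weights and to between 1 and 29 and between 2 and 19 when 1 array was left out, and of the 5 named differences those of RLP37 and AT3G19680 passed under every alternative tried. The higher ones were ANK, RLP37 and PR1. PR1, the standard marker of SA-dependent resistance, read 7.35, 7.95 and 7.23 in bak1-5 Psm, against 6.02, 5.75 and 5.84 in bak1-5 MgCl2 (change 1.65, SE 0.15, q = 9.5e-07), and its change in lecrk-VI.2-2 was 0.29. The lower ones were EXO and AT3G19680, and 2 probe sets with no gene name. AT3G19680 read 5.25, 5.27 and 4.67 in bak1-5 Psm, against 7.88, 7.97 and 7.41 in bak1-5 MgCl2 (change -2.70, q = 5e-08), beside 0.13 in lecrk-VI.2-2.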

How the data were processed

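Total RNA from systemic leaves was hybridised to Affymetrix ATH1 arrays, 18 in 6 groups of 3. The authors background-corrected, normalised and summarised the probes by RMA with the affy package, and the deposited values are on the log2 scale. The table holds 22810 probe sets, of which 64 control probe sets were left out. The precision is limited by the number of arrays (median SE of a bak1-5 change 0.106, of a difference between genotypes 0.150).

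Groups were taken from the array titles. limma 3.58.1 in R 4.3.3 fitted 1 mean per group over all 18 arrays with moderated variances (12 residual and 6.03 prior degrees of freedom), and contrasts were Psm minus MgCl2 within bak1-5 and its difference from the change in each other genotype. q-values are Benjamini-Hochberg adjusted over 22746 probe sets. A probe set was called at q of 0.05 or less and at least 2-fold, and list members at this q alone. A gene was represented by its probe set with the highest mean. On simulated data with 200 changed probe sets of 22746, 100% of bak1-5 changes of 1.5 were recovered with 1 other call, and 99% of differences of 1.5 with 3 others. The simulated noise was independent between arrays and probe sets. It held no shift of a whole array, so it cannot show how such a shift in the real arrays affects the counts.

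Probe sets were named through the platform annotation (13496) or by matching 3 rounded changes to the rows of a supplementary table, used for identity only (1014). 524 probe sets with several genes, 14 with conflicting names and 7698 without a gene stayed unnamed. The members and gene lists were chosen with earlier results of these data known. Named genes were the 20 largest rises and falls, the 10 largest differences from Col-0 and 5 from lecrk-VI.2-2 in each direction, list members, PR1, PR2, PR5, BAK1 and LecRK-VI.2. Alternatives varied the arrays fitted, variance model, weights, filter on dim probe sets (highest group mean below 6), scaling, replicate block, thresholds and each array left out. Same-numbered bak1-5 Psm and MgCl2 arrays did not deviate together (correlations of deviations 0.001, 0.061 and -0.039), so the numbers were not treated as pairs. Between genotypes, same-numbered Psm arrays ranged wider. The lowest value was -0.266 for bak1-5 and Col-0 replicate 2. The highest were 0.322 and 0.260 for bak1-5 and lecrk-VI.2-2 replicates 2 and 3. No gene or promoter sequence was used here.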

Additional observations from a re-analysis of the deposited data

Results flagged for a closer look

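The change in bak1-5 differed from that in another genotype by the test of the difference in the following results. Against Col-0, 30 probe sets had a higher and 176 a lower change in bak1-5, and against lecrk-VI.2-2 3 had a higher and 4 a lower change. With 3 arrays a group, no outlier test within a group was made, and the values without each array in turn are given with the alternatives.

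The named genes with a higher change in bak1-5 than in Col-0 included AT4G24780 (difference 1.78), AT1G19960 (1.70), AT1G13650 (1.56), AT2G15020 (1.53) and AT5G51010 (1.23). HCT followed at 1.16, AT3G44450 at 1.11, G3PP1 at 1.06, AT1G21590 at 1.05 and AT1G64500 at 1.04. The 10 largest named differences below 0 were those of PHI-1 (-4.98), EXO (-4.72), TCH4 (-4.50), AT4G29780 (-3.28), SZF1 (-3.28), AT3G01830 (-3.18), WRKY40 (-3.09), AGP1 (-2.99), PR2 or BGL2 (-2.91) and AT3G19680 (-2.88). Of these 20 differences, 9 passed under all 19 alternatives tried, and 3 more passed under the 18 other alternatives but were left out by the filter on dim probe sets. AT1G19960 failed 11 of them, G3PP1 and AT1G64500 10 each and AT1G13650 6.

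Against lecrk-VI.2-2 the named differences were 1.77 for ANK, 1.76 for RLP37, 1.35 for PR1, and -2.82 for both AT3G19680 and EXO. 2 of these 5, RLP37 and AT3G19680, passed under every alternative.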

How the results depend on the processing

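The counts of 221 raised and 121 lowered probe sets in bak1-5 stayed within 1.5 times under every other setting except without the fold threshold (929 and 685). They were 225 and 121 with the replicate block, and leaving out 1 bak1-5 array gave 178 to 280 and 107 to 136. Counts against Col-0 moved more. Leaving out 1 array gave 11 to 46 higher and 122 to 211 lower changes in bak1-5, with 11 higher without Col-0 MgCl2 replicate 2, 12 without bak1-5 Psm replicate 3 and 46 without Col-0 Psm replicate 2. A q of 0.01 gave 12 higher and 108 lower, no fold threshold 70 higher, and a fold of 1.2 inside the test 9 higher and 111 lower. The replicate block gave 27 and 188.

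The small counts against lecrk-VI.2-2 were unstable. In place of 3 higher and 4 lower, array weights gave 36 and 37, the filter on dim probe sets 11 and 11 (fewer probe sets tested), and cyclic loess 12 and 16. Fitting only the arrays compared gave 1 higher, a q of 0.01 gave 1 higher and 2 lower, and a fold of 1.2 inside the test 1 higher. Leaving out 1 array gave 1 to 29 higher (29 without lecrk-VI.2-2 MgCl2 replicate 2) and 2 to 19 lower (19 without lecrk-VI.2-2 MgCl2 replicate 3). The replicate block gave 4 and 5. The causes were not tested.

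Of 131 named genes that passed in bak1-5, 93 passed under all 13 alternatives, and no change reversed. A further 17 passed under the other 12 but were left out by the filter on dim probe sets, which did not test them. The 21 that failed 1 or more, most of them when 1 bak1-5 array was left out, were ACX1, AO, ARCK1, AT2G27080, AT1G13650, AT1G29660, AT1G64500, BIR1, BT2, CYP707A3, CYP94C1, HB-12, JAZ12, PDIL1-1, PR4, RLP34, RLP41, SOT17, TSA1, WRKY22 and XTH24. Array weights raised the count of JA genes that rose to 18, against 11, and of glucosinolate genes to 8, against 5. Without dim probe sets, 2 receptor-like proteins and 3 receptor kinases rose, against 6 and 5, 3 touch genes rose, against 1, 2 expansins and wall-loosening genes fell, against 4, and 0 JA genes fell, against 1. With names from the platform annotation alone, 2 of 4 SA-responsive, 0 of 2 SA synthesis, 0 of 3 JA, 2 of 3 endoplasmic reticulum, 0 of 2 glucosinolate and 0 of 2 touch genes rose, and no receptor-like protein or listed lectin, cysteine-rich or wall-associated kinase had a name. Median centring moved the median change of all probe sets to 0.01, against -0.04.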

Other observations

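Several groups of raised genes in bak1-5 lay outside the lists and were picked after their values were seen, so they carry no test as groups. MKK1 (MEK1 in the annotation), MKK2 and MPK4 are kinases that act in one signalling module, and these 3 rose. Values of other members of the module are not given here. MPK4 read 6.66, 6.68 and 6.61 in bak1-5 Psm, against 5.50, 5.51 and 5.42 in bak1-5 MgCl2 (change 1.18, q = 2.1e-05), with no overlap. MEK1 rose by 1.12 (q = 0.00018) and MKK2 by 1.39 (q = 1.8e-05). The differences from Col-0 were 0.02, 0.23 and -0.17 for MPK4, MEK1 and MKK2, and none passed.

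Genes of ascorbate synthesis and recycling were also raised. VTC2, a GDP-L-galactose phosphorylase gene of ascorbate synthesis, read 10.52, 10.70 and 10.63 in bak1-5 Psm, against 9.36, 9.47 and 8.89 in bak1-5 MgCl2 (change 1.38, q = 1.4e-05), and its change in Col-0 was 0.62 (difference 0.76, q = 0.12). Its paralog VTC5 rose by 1.03 (q = 0.00056). DHAR1, a dehydroascorbate reductase gene whose probe set can detect related genes, rose by 2.12 (q = 0.0023), and ATMDAR2, a monodehydroascorbate reductase gene, by 1.36 (q = 0.00049). AMT1;1, an ammonium transporter gene, read 8.23, 7.94 and 8.41 in bak1-5 Psm, against 6.31, 6.22 and 6.42 in bak1-5 MgCl2 (change 1.87, q = 3.1e-06). Cytosolic heat shock genes rose too, with HSP70 at 1.99 (q = 4.7e-07) and HSP17.4 at 2.04 (q = 4.6e-06).

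Among lowered genes, STP1, a monosaccharide transporter gene, read 7.15, 7.54 and 6.93 in bak1-5 Psm, against 8.54, 8.44 and 8.12 in bak1-5 MgCl2 (change -1.16, q = 0.00028), and its change in Col-0 was 0.55 (difference -1.71, q = 0.001). CPK28, a calcium-dependent kinase that promotes turnover of the immune kinase BIK1, fell by 1.39 (q = 0.0019), and the difference from Col-0 was -1.82 (q = 0.013).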
